A study of Mus musculus with 335 samples.

Results

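E0771 primary tumours are allografts of the mouse mammary tumour line E0771, grown after orthotopic injection, that is, into the mammary gland. They were found by their sample titles, which give 4 such tumours of 1 library series, out of 335 libraries in the whole series. They are set against the primary tumours of the 6 other lines of that library series, D2A1, EMT6, F311, HRM1, R3T and TSAE1, with 4 tumours each, so 24 in all and 28 libraries together. The series as a whole sequenced RNA of primary tumours, metastases and cultured cells of several mouse models of metastatic mammary cancer, and all samples were untreated.

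E0771 tumours are labelled with the strain BL6 and an unknown driver, and the deposited column names write the strain as BL6N. D2A1, EMT6, F311 and TSAE1 are labelled BALB with an unknown driver, HRM1 is labelled FVB with the driver Pik3ca, and R3T is labelled 129S1J with an unknown driver. All 28 tumours came from snap-frozen tissue after orthotopic injection of a cultured line, and no age of the hosts was used here. Each group is 1 line, so its 4 tumours are repeats of that line and not separate models. The column names give each tumour its own mouse, except that the 4 TSAE1 columns all name mouse 1 and may come from 1 animal. Nothing says that the injected cells came from separate cultures, so that p-values measure the spread between these samples. E0771 is the only BL6 line of the 7, and the genome build mm9 is that of a BL6 mouse, so line, strain and match to the build cannot be told apart among these 28 tumours. Tumours of the MMTV-PyMT transgene, in which a viral promoter active in mammary epithelium drives the polyoma middle T antigen, are therefore given beside them: 6 animals labelled BL6, of which 2 are titled BL6N, and 13 animals labelled FVB with 17 libraries.

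The E0771 line was derived from a spontaneous medullary mammary adenocarcinoma of a C57BL/6 mouse and is widely used to study the immune response to mammary tumours in that strain. Tumour RNA mixes transcripts of the cancer cells with those of host macrophages, lymphocytes, fibroblasts, vessels and blood, and fewer cells of a type cannot be told apart from less RNA per cell. Many germline genes of the X chromosome, among them the Rhox homeobox and Xlr clusters, are silent in most adult somatic cells, while genes induced by type I interferon carry a shared response element in their promoters.

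Gene levels were deposited as RPKM, read numbers scaled by transcript length and library size, and 12181 of 20188 genes passed a minimum of 1 RPKM in at least 4 of the 28 libraries. Counted reads per library, recovered from the equal steps of low values, were 17705642 to 37558709 in E0771 tumours and 27913377 to 54906212 in the 24 others, so that 1 read in a transcript of 1 kb equals 0.0565 RPKM at the lowest depth and 0.0182 at the highest. Across these genes the correlation of log2(RPKM + 1) between E0771 tumours was 0.974 to 0.991, a description across genes that are not independent. The E0771 mean had correlations of 0.873 with D2A1, 0.857 with EMT6, 0.855 with R3T, 0.849 with TSAE1, 0.83 with HRM1 and 0.827 with F311. Among the other 6 lines the 15 pairs of means had correlations of 0.879 to 0.936, all above the highest value of E0771 with any line. The first principal component held 30.4% of the variance, and the E0771 tumours lay at 73.5 to 86.6 on it, apart from the others at -37.9 to 31.8.

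**Figure D1:**
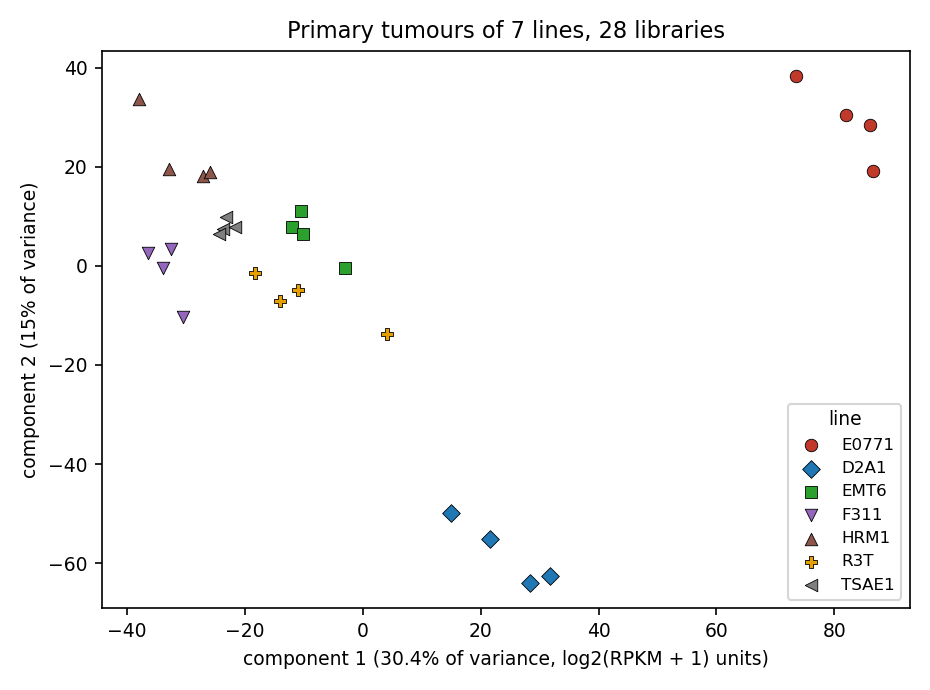
Principal components of log2(RPKM + 1) over 12181 genes, 1 point per tumour, with component 1 (30.4% of the variance) on the x axis and component 2 (15.0%) on the y axis, coloured by line. The 4 E0771 tumours lie at 73.5 to 86.6 on component 1, and the 24 tumours of the 6 other lines at -37.9 to 31.8.

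Each gene was tested with limma on log2(RPKM + 1), with E0771 set against the mean of the 6 other line means, and called at a Benjamini-Hochberg adjusted p under 0.05. Of the genes tested 8372 (68.7%) were called, 3651 (30.0%) higher and 4721 (38.8%) lower in E0771, and the median difference over all genes was -0.08. With each library rescaled to the median ratio over genes that median was 0.03, a shift of over 0.1, and the calls were 4499 higher and 4111 lower. The share of higher genes among all calls was thus 52.3% after rescaling and 43.6% as deposited, so that the balance of directions and small differences depend on the scaling. A narrower rule asked for a call in the same direction against each of the 6 lines. It held for 2392 genes (19.6%), 1154 higher (9.47%) and 1238 lower (10.2%), and after rescaling the share of higher genes among them was 58.3%, against 48.2% as deposited. The same rule gave 1050 genes for D2A1, 758 for F311, 700 for EMT6, 569 for R3T, 484 for HRM1 and 346 for TSAE1, so E0771 had the largest number of the 7 lines. Against single lines 6744 genes were called for D2A1 (55.4%), 7272 for EMT6 (59.7%), 7281 for R3T (59.8%), 7440 for TSAE1 (61.1%), 7601 for HRM1 (62.4%) and 8284 for F311 (68.0%). In 824 genes (6.76%) all 4 E0771 tumours lay above all 24 others, and in 1181 (9.70%) all 4 lay below them.

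**Figure D2:**
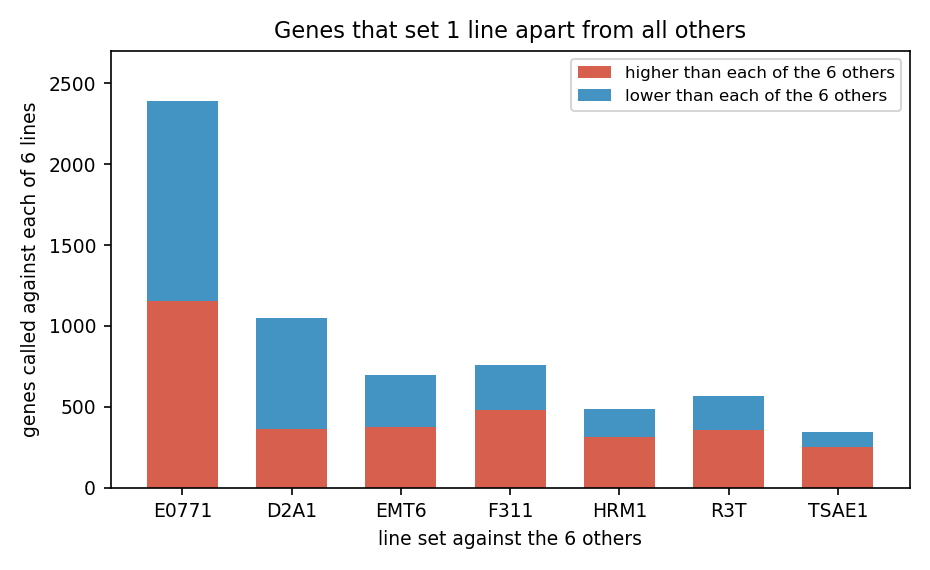
Number of genes called with limma in the same direction against each of the 6 other lines, for each of the 7 lines in turn, with genes higher than all others in red and lower than all others in blue. E0771 has 2392 such genes, D2A1 1050 and TSAE1 346.

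Germline genes, many of them on the X chromosome, were among the genes furthest above the other lines in E0771. Values of the 4 E0771 tumours are given in the order 1-1, 1-2, 1-5 and 1-6, and those of the 24 others as the lowest, the median and the highest. Ott, an X-linked gene of meiotic germ cells, had 88.4, 95.1, 101 and 84.0 RPKM in E0771, against 0, 0.0401 and 5.09 in the others. Tex19.1, which guards germ cells against retrotransposons, had 43.8, 45.1, 46.8 and 48.6 RPKM, against 0, 0.0116 and 0.141. Xlr3c, of the X-linked lymphocyte-regulated cluster, had 48.3, 46.7, 46.2 and 39.0 RPKM, against 0, 0.0708 and 0.401. All 4 E0771 tumours lay far above the 24 others in each of these genes, and D2A1 had the highest Ott among the other lines, with a mean of 3.67 RPKM. On the log2(RPKM + 1) scale, which understates the change of genes low in 1 group, the differences were 5.99 ± 0.13 (SE) for Ott, 5.52 ± 0.05 for Tex19.1 and 5.39 ± 0.06 for Xlr3c. Their adjusted p-values in limma were 1.5e-22, 1.4e-31 and 1.1e-28. None of the 24 others reached 1 RPKM of Tex19.1 or Xlr3c, so both passed the minimum through E0771 alone and could only be called higher.

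The Rhox cluster, homeobox genes of the testis, ovary and placenta, was split. The deposited table lists 28 of its genes, of which 16 were tested, and 9 were higher and 7 lower in E0771. The 9 higher ones were Rhox1 and 8 copies of Rhox2, and each was at 1 RPKM or more in every E0771 tumour. No tumour of another line reached 1 RPKM in any of the 9, so they passed the minimum through E0771 alone and could only be called higher. The 7 lower ones were copies of Rhox4, none of them lower against each line: Rhox4a, which differed most, averaged 0.0406 RPKM in E0771 and 4.28 RPKM in the 6 lines (-1.55 on the log2 scale). The summed Rhox level was 88.0 to 123 RPKM in E0771, against 0.0788, 5.29 and 40.1 RPKM in the others, and it reached 247 RPKM in a Met1 primary tumour of another library series. Rhox2d had 23.4, 29.8, 29.6 and 22.9 RPKM in E0771, against 0, 0 and 0.0972 in the others. Rhox2e had 24.4, 17.5, 26.5 and 14.0 RPKM, against 0, 0 and 0.129, and Rhox1, chosen with the other cluster members after values were seen, 7.27, 8.83, 8.72 and 8.76 RPKM, against 0, 0 and 0.0585. E0771 tumours lay above all others in each, and the differences were 4.75 ± 0.06, 4.37 ± 0.09 and 3.22 ± 0.05 (adjusted p in limma 3.3e-28, 2.2e-23 and 1.8e-26). Copies of Rhox2 and of Rhox4 are nearly identical, so reads may be split between them and single copies are uncertain. Of the Xlr genes 7 of 10 were tested, and all 7 were higher, 5 of them against each line. Their summed level was 92.5 to 113 RPKM in E0771, against 2.56, 6.71 and 33.5 RPKM in the others, and it reached 100.4 RPKM in a primary tumour of 67NR, a line of another library series. These copies, too, are close relatives whose reads may be split. Among them Xlr3a and Xlr3c passed the minimum through E0771 alone and could only be called higher. Outside E0771 only HRM1 reached 1 RPKM of Xlr3b (0.414 to 1.17 RPKM). These were too few tumours for the minimum, so Xlr3b could also only be called higher.

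Other germline and early embryo genes, also named after values were seen, were also high in E0771. Dppa4, a gene of early embryos and pluripotent cells, had 21.4, 20.1, 20.4 and 19.06 RPKM in E0771, against 0, 0 and 0.878 in the others. Tex11, an X-linked gene of meiosis, had 9.74, 11.8, 11.9 and 8.73 RPKM, against 0, 0.0134 and 0.315. Both were above all 24 others in every E0771 tumour (4.27 ± 0.05 and 3.48 ± 0.07 log2, adjusted p in limma 7e-28 and 7.2e-24). Among the 331 libraries of the series other than the 4 E0771 tumours, including metastases, normal tissues and cultured lines, 0 reached the lowest E0771 level of Tex19.1, Xlr3c, Rhox2d, Rhox2e, Rhox1, Tex11 or Dppa4. Ott was at or above it in 5 libraries and Pnma5 in 8, and the highest values of both were in 67NR primary tumours. Pnma5, an X-linked member of the paraneoplastic antigen family, had 24.3, 27.0, 29.4 and 26.7 RPKM in E0771, against 0, 0.00738 and 0.110 in the other 24, with a difference of 4.78 ± 0.05 (adjusted p in limma 9.7e-30). Nxf3, an X-linked relative of the mRNA export factors, had 30.1, 26.0, 29.1 and 26.4 RPKM, against 0, 0.00316 and 0.240, and the difference was 4.80 ± 0.05 (adjusted p in limma 1.1e-28). Dppa4, Tex11, Pnma5 and Nxf3 also stayed under 1 RPKM in the other 24, so they could only be called higher.

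The X chromosome held genes at both ends of the comparison. Of its 430 tested genes 68 (15.8%) were higher against each line and 106 (24.7%) lower, and the median difference was -0.51. Chromosome 6 had a larger share of genes higher against each line (18.3%). Chromosome 5 had the next largest share lower (17.8%). Among the 59 genes that were higher against each line and by at least 3 on the log2 scale, 26 (44.1%) lay on the X, which holds 3.53% of the tested genes. The 26 include near-identical Rhox2 and Xlr3 copies counted singly, some tested through E0771 alone, so they are not 26 separate loci. Xist, the RNA that coats the inactive X, chosen after values were seen, had 3.32, 0.982, 1.66 and 2.21 RPKM in E0771, against 8.37, 43.9 and 163 in the others. All 4 E0771 tumours lay below all 24 others (-3.72 ± 0.22 log2, adjusted p in limma 3.7e-13), while F311, with a mean of 11.4 RPKM, and EMT6, with 14.6, were the lowest of the other lines. Dnmt1, the maintenance DNA methyltransferase, was higher (20.9, 12.8, 20.9 and 22.1 RPKM in E0771, against 5.59, 12.2 and 16.5), with tumour 1-2 inside the range of the others. Dnmt3a, a de novo methyltransferase, was lower by a small difference (-0.35 ± 0.11 log2), and its groups overlapped. Both were chosen after values were seen, and a part of methylation or X dosage in these levels was not tested.

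Runs of neighbouring genes differed together. In windows of 21 neighbouring tested genes, 9.25% of 11181 windows had a median of at least 0.5 in size in E0771, against 7.69% in D2A1, 2.54% in TSAE1, 2.35% in F311, 2.18% in EMT6, 1.38% in R3T and 0.796% in HRM1, each line being set against the mean of the other 6. The highest window in E0771 ran on the X chromosome from Pnma5 to L1cam with a median of 1.36, while the other lines had medians of -0.785 to -0.069 there. On chromosome 9 a window from Adamts8 to Pus3 had a median of 0.98 in E0771 and of -0.460 to 0.079 in the other lines. A low window on the X from Eras to 1810030O07Rik had a median of -1.18 in E0771 and of -0.336 to 0.40 in the other lines, and one on chromosome 9 from Cd3e to Gm5617 had -1.10 in E0771 and -0.245 to 0.532 in the others. The window of lowest median, on chromosome 4 from Lpar1 to Mup17 (-1.695), spans Mup copies whose reads may be split and was lower still in another line (-2.292).

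The other named genes higher in E0771 came from several families. Genes named by rule were those called against each line, at least 1 apart on the log2 scale and with a mean of at least 5 RPKM on the higher side; 937 genes met it after 44 predicted genes and receptor segments were left out, 413 higher and 524 lower. The 15 largest in each direction are plotted. The Raet1 genes encode ligands of NKG2D, an activating receptor of natural killer cells. Raet1a had 65.7, 50.3, 60.8 and 38.2 RPKM in E0771, against 0.188, 0.916 and 4.90 in the others. Raet1c had 72.4, 56.2, 69.6 and 37.4 RPKM, against 0.165, 1.01 and 6.76. The lowest E0771 tumour, 1-6, was still above the highest of the others in both, and the differences were 4.68 ± 0.15 and 4.59 ± 0.19 (adjusted p in limma 3e-19 and 7.6e-17). Raet1d and Raet1e differed by 4.62 and 4.51, and the 4 genes are near-identical copies whose reads may be split. Raet1d and Raet1e have a place on chromosome 10 in GRCm38.p6 and none was found for Raet1a and Raet1c. Which copies gave the reads was therefore not settled for the 4 genes. Their summed level was 269, 208, 253 and 148 RPKM in E0771, against 0.694, 3.75 and 23.6 RPKM in the others, with the highest value of the remaining series at 57.6 RPKM in a Met1 lung metastasis.

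Gpnmb, a membrane glycoprotein of melanocytes and macrophages, had 49.8, 49.2, 58.6 and 68.0 RPKM in E0771, against 0.175, 0.636 and 4.25 in the others. Nptx1, a neuronal pentraxin, had 67.3, 29.9, 56.2 and 59.3 RPKM, against 0, 0.120 and 2.81. Crmp1, which acts in axon guidance, had 27.0, 17.7, 26.4 and 26.2 RPKM, against 0.0123, 0.109 and 0.502. No tumour of the 6 other lines reached E0771 in these 3 genes, and tumour 1-2 was the lowest E0771 tumour in each. Of the 331 other libraries of the series 8 reached the lowest E0771 level of Gpnmb, 3 that of Nptx1 and 2 that of Crmp1, with maxima of 177 RPKM in 4T07 cells, 88.5 RPKM in a Met1 brain metastasis and 60.1 RPKM in an M6 brain metastasis. Differences were 5.03 ± 0.19, 5.14 ± 0.14 and 4.47 ± 0.09 (adjusted p in limma 1.3e-17, 1.6e-20 and 8.2e-24). Crmp1 passed the minimum through E0771 alone, so it could only be called higher. The table row Mir9-3, whose reads cannot be told from those of a host transcript, had 28.5, 19.4, 30.2 and 19.6 RPKM, against 0, 0 and 1.99. Outside E0771 only HRM1 reached 1 RPKM of Mir9-3, in too few tumours for the minimum, so this row could only be called higher.

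**Figure D3:**
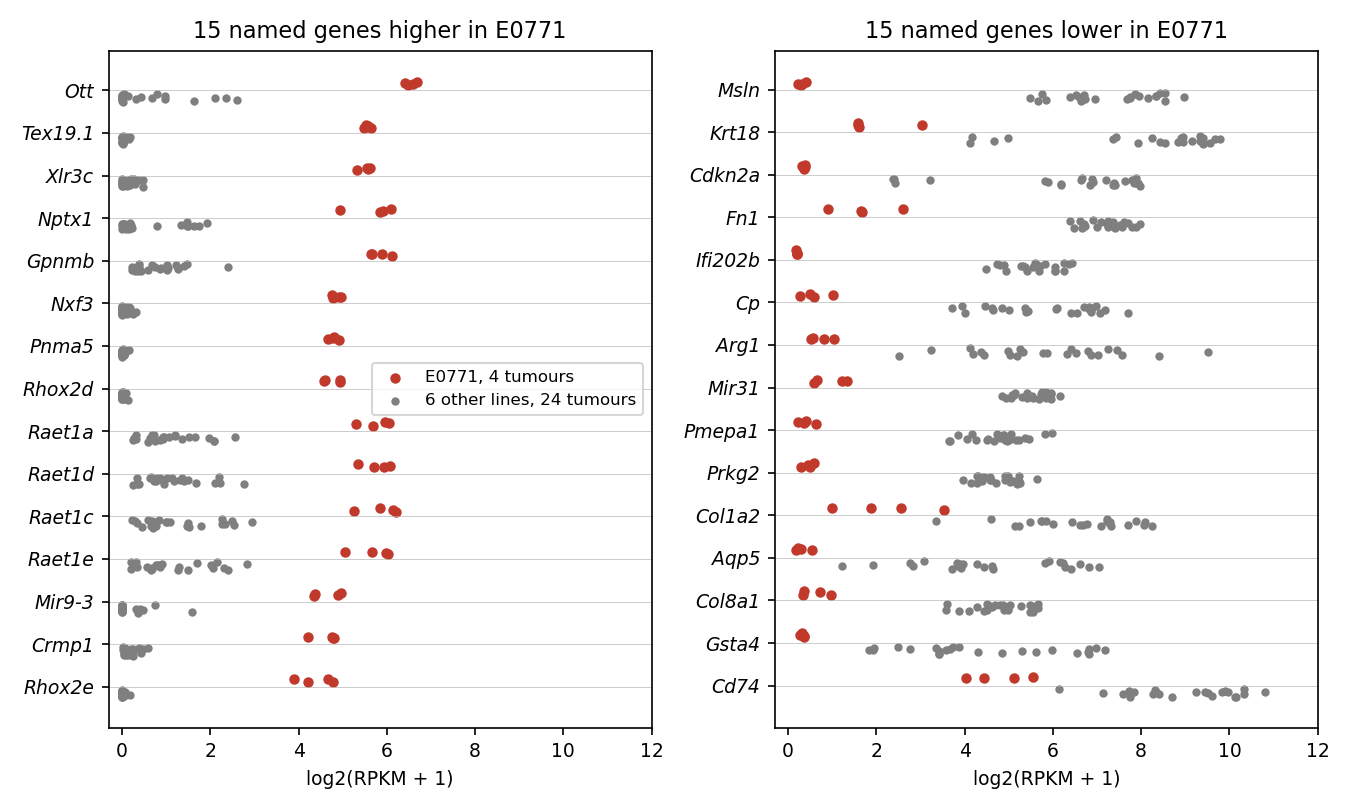
Levels of the 15 named genes higher (left) and the 15 lower (right) in E0771, as log2(RPKM + 1) on the x axis, 1 point per tumour, with the 4 E0771 tumours in red and the 24 tumours of the 6 other lines in grey. The groups overlap in Col1a2 and in no other of the 30 genes.

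Among the genes lower in E0771, the cell cycle inhibitor locus on chromosome 4 stood out. Cdkn2a, which encodes p16 and p19Arf, had 0.297, 0.313, 0.240 and 0.291 RPKM in E0771, against 4.18, 118 and 249 in the others. Cdkn2b, which encodes p15, had 0.0747, 0.0631, 0.134 and 0.168 RPKM, against 0.211, 24.0 and 64.2, and the row Mir31 had 0.504, 1.33, 1.51 and 0.565 RPKM, against 27.7, 45.2 and 70.8. No E0771 tumour reached the lowest of the others in any of the 3 rows. EMT6 was the lowest of the other lines in both inhibitors, with means of 5.29 RPKM for Cdkn2a and 0.457 RPKM for Cdkn2b. The differences were -6.0 ± 0.16, -3.96 ± 0.19 and -4.59 ± 0.15 (adjusted p in limma 1.9e-20, 1.7e-15 and 1.4e-18), and Cdkn2b was called against 5 of the 6 lines. Mtap, a methionine salvage gene that lies between Cdkn2a and Mir31 in the GRCm38.p6 gene order, had 36.7, 40.0, 38.9 and 36.1 RPKM in E0771, against 30.6, 53.8 and 96.0 in the others. Its groups overlapped, and its difference was -0.53 ± 0.13 (adjusted p in limma 0.00067; chosen after values were seen). Copy number and methylation of the locus were not measured.

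Msln, the cell surface protein mesothelin, had the largest difference of the genes lower in E0771, with 0.167, 0.325, 0.220 and 0.247 RPKM in E0771, against 43.9, 163 and 498 in the others. Ifi202b, an interferon-inducible DNA sensor that varies between strains, had 0.136, 0.144, 0.144 and 0.153 RPKM, against 21.5, 47.8 and 85.7. Fn1, the matrix glycoprotein fibronectin, had 5.04, 0.861, 2.18 and 2.13 RPKM, against 82.6, 150.3 and 250.3. All 4 E0771 tumours lay below all 24 others in the 3 genes, with the 6 other lines all high. The differences were -6.95 ± 0.13 for Msln, -5.39 ± 0.13 for Ifi202b and -5.49 ± 0.23 for Fn1, with adjusted p-values in limma of 2.9e-24, 1.5e-21 and 2.9e-16. Cp, the copper carrier ceruloplasmin, Prkg2, a cGMP-dependent kinase, Aqp5, a water channel, Col8a1, a short-chain collagen, and Gsta4, a glutathione transferase, differed by -5.23, -4.30, -4.28, -4.19 and -4.11. Gsta4, at 0.202 to 0.294 RPKM in E0771, was above the highest E0771 tumour in all 331 other libraries of the series. The other low genes were not low in E0771 alone across the series: Msln was at or below the highest E0771 tumour in 71 of the 331 libraries, Prkg2 in 134, Col8a1 in 98, Mir31 in 73, Cdkn2a in 59, Cdkn2b in 28, Fn1 in 18, Aqp5 in 17, Cp in 3 and Ifi202b in 2.

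Among oncogenes and tumour suppressors 8 of 18 tested genes were higher and 7 lower, with a median of 0.01, beside -0.08 over all genes. Counts of this and every later list are to be read beside all genes tested, of which 30.0% were higher and 38.8% lower. Ccnd2, cyclin D2, had 53, 31.8, 46.9 and 43.6 RPKM in E0771, against 3.50, 11.4 and 17.8 in the others. E0771 was above all others, and the difference was 1.98 ± 0.20 (adjusted p in limma 3.4e-09). Trp53 had 62.4, 53.8, 59.7 and 63.6 RPKM in E0771, against 5.49, 34.0 and 71.0 in the others, and D2A1, with a mean of 6.80 RPKM, was far below the rest. Myc had 85.3, 65.7, 75.0 and 127 RPKM, against 15.2, 33.5 and 225, with HRM1 the highest line at 173 RPKM. Both were called higher (0.97 ± 0.12 and 0.97 ± 0.12; adjusted p in limma 1.1e-07 and 1.9e-07) although their groups overlapped. Of 18 p53 target genes 4 were higher and 8 lower (median -0.18), shares near those of all genes tested (30.0% higher and 38.8% lower), and without tumour 1-6 the higher count was 2. Pmaip1, which promotes apoptosis, differed by 1.41 and Perp, a desmosome protein, by -3.44.

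Feedback and target genes of the MAPK pathway were 8 higher and 3 lower of 16 tested (median 0.29). Fosl1, an AP-1 subunit, had 73.4, 74.3, 76.6 and 110.2 RPKM in E0771, against 11.2, 22.4 and 50.6 in the others. Spry4, a feedback inhibitor of receptor tyrosine kinase signalling, had 9.58, 4.55, 8.39 and 7.97 RPKM, against 0.710, 1.39 and 2.68. In contrast, Egr1, an immediate early transcription factor, had 0.83, 0.423, 0.524 and 0.615 RPKM, against 3.25, 7.96 and 20.8. The groups did not overlap in any of the 3, with E0771 above the others in Fosl1 and Spry4 and below them in Egr1 (1.90 ± 0.13, 1.79 ± 0.12 and -2.50 ± 0.17; adjusted p in limma 3.9e-12, 2.2e-12 and 2.2e-12). Dusp5, a nuclear ERK phosphatase, was higher by 1.25, also without overlap.

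Epithelial genes were low in E0771, as they were in D2A1 and EMT6. Of 19 tested luminal and epithelial genes 18 were lower and 1, the transcription factor Ovol1, was higher, with a median of -2.08 against the mean of the 6 lines. Against D2A1 the median was -0.02 and against EMT6 -0.10, while it was -3.81 against HRM1, -3.47 against TSAE1, -2.28 against F311 and -2.15 against R3T. Krt8, a keratin of simple epithelia, had 51.0, 77.9, 63.7 and 89.1 RPKM in E0771, against 31.7, 388 and 868 in the others, and its partner Krt18 had 7.16, 2.03, 2.01 and 1.99 RPKM, against 16.5, 479 and 877.9. Krt18 did not overlap, whereas Krt8 did, since D2A1 had a mean Krt8 of 37.2 RPKM. Within E0771 Krt8 thus stood at 70.4 ± 16.6 RPKM and Krt18 at 3.30 ± 2.57 RPKM (mean ± SD, n = 4), both per length, while the D2A1 means were 37.2 and 221 RPKM. The difference in Krt18 was -6.20 ± 0.21 and that in Krt8 -2.08 ± 0.14 (adjusted p in limma 1.8e-18 and 2.2e-12). Epcam had 1.65, 0.703, 0.725 and 0.955 RPKM in E0771, against 0.308, 17.4 and 147 in the others, and Cdh1, E-cadherin, 0.514, 0.128, 0.203 and 0.246 RPKM, against 0.471, 12.2 and 45.7. Both markers of epithelium were thus low in every E0771 tumour, at or near the level of the lowest of the others, although the tissue is labelled a mammary tumour. Of 8 basal and squamous genes 6 were lower (median -0.73), and of 7 hormone receptors and luminal regulators 4 were lower (median -0.71). Pgr, the progesterone receptor, was listed at 0 in 3 of the E0771 tumours and did not pass the minimum.

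Mesenchymal regulators were 6 higher and 3 lower of 11 tested (median 0.35). Against R3T the median of this list was -0.22, and against the other lines it was 0.13 to 0.57. Twist2, a repressor of epithelial genes, had 14.9, 20.0, 16.0 and 25.8 RPKM in E0771, against 0.223, 1.06 and 7.33 in the others. Zeb1, a repressor of E-cadherin, had 12.0, 8.12, 11.6 and 9.98 RPKM, against 0.942, 3.35 and 7.13, and Prrx1, a mesenchymal homeobox gene, had 40.0, 32.9, 36.1 and 46.2 RPKM, against 2.80, 10.9 and 26.3. E0771 was above all others in each (3.03 ± 0.18, 1.45 ± 0.11 and 1.72 ± 0.21; adjusted p in limma 1.4e-13, 1.1e-11 and 1.6e-07). Among the 331 other libraries of the series 0 reached the lowest Twist2 of E0771, while 50 reached that of Zeb1 and 8 that of Prrx1. Primary tumours of 67NR, a line of another library series, averaged 13.7 RPKM of Zeb1 and 38.9 RPKM of Prrx1, beside 10.4 and 38.8 in E0771. Vim, vimentin, was high in both groups, at 1583 to 2335 RPKM in E0771, against 367, 1551 and 2763 in the others. Targets of TGF-beta and YAP were mostly lower, 10 of 12 with 1 higher (median -1.20). Ankrd1, a YAP target, had 3.90, 1.37, 1.17 and 1.25 RPKM, against 14.2, 27.9 and 69.5, and Ctgf, a matrix signalling protein, 3.35, 2.72, 4.27 and 3.08 RPKM, against 8.99, 21.7 and 70.5, with no overlap in either (-3.54 ± 0.23 and -2.38 ± 0.30; adjusted p in limma 1.6e-12 and 1.8e-07). Pmepa1, a TGF-beta target and inhibitor, differed by -4.37 ± 0.20 on the log2 scale, with 0.554, 0.163, 0.323 and 0.285 RPKM in E0771, against 11.6, 28.4 and 62.2.

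Genes induced by type I interferon were the list that was highest in E0771 with more than 3 members tested. Of 22 tested 20 were higher, with a median of 1.22, and 8 were higher against each line. The 1 lower call, Isg20, was lost after rescaling and without tumour 1-1, 1-2 or 1-5. Because the list was higher as a whole, promoters of 4 of its genes are shown, each with a match to the element given below. The sequences are from RefSeq on GRCm38.p6, 250 bases before to 50 after the gene start, read 5′ to 3′ on the gene's strand. Capitals mark every match to the interferon response element letters GAAANNGAAA on either strand, with matches that overlap joined.
Ifit1, chr19:34640639-34640938, plus strand: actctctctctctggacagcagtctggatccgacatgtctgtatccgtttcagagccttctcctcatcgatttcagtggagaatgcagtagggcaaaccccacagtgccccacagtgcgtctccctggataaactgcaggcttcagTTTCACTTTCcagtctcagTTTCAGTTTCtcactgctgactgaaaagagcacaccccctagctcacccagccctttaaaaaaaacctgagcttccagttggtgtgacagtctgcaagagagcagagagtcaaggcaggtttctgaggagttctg
Isg15, chr4:156200769-156201068, minus strand: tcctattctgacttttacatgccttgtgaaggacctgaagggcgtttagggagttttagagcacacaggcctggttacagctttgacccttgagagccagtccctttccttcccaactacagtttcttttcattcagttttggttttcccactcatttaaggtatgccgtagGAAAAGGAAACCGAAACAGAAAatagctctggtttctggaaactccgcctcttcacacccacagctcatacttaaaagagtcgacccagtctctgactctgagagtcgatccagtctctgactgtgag
Oas1a, chr5:120907476-120907775, minus strand: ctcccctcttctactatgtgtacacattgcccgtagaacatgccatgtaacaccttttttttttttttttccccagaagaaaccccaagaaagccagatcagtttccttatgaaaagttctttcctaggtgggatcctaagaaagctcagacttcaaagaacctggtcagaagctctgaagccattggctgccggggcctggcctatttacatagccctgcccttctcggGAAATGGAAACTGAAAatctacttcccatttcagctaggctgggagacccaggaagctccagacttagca
Rsad2, chr12:26456403-26456702, minus strand: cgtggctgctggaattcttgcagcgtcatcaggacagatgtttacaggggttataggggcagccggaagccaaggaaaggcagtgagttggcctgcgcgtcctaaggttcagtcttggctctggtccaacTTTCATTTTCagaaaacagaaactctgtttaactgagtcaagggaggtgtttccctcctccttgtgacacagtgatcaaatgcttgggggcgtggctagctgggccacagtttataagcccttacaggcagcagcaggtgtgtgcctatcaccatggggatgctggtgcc
Of the 22 genes 17 had a promoter in the table and 9 of these (52.9%) held a match, against 1131 of 32851 promoters of all genes (3.44%). Genes not shown with 0 matches include Ifit2, Oasl1, Oasl2, Irf7 and Cmpk2. The list was made of known interferon-induced genes, so its share describes the list and is no result about E0771. A match is a description of letters, and binding was not measured.

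Rsad2, an antiviral enzyme also called viperin, had 47.9, 23.5, 30.2 and 42 RPKM in E0771, against 0.286, 3.58 and 10.6 in the others. Usp18, which removes ISG15 from proteins and damps interferon signalling, had 79.6, 62.7, 75.3 and 89.3 RPKM, against 1.39, 14.8 and 22.8. Oas1a, a sensor that makes the activator of RNase L, had 87.0, 76.0, 85.4 and 98.9 RPKM, against 4.46, 25.0 and 58.2. No tumour of another line reached the lowest E0771 tumour in any of the 3 genes, and HRM1 was the lowest line in each. The differences were 2.99 ± 0.22, 2.65 ± 0.23 and 1.92 ± 0.19 (adjusted p in limma 1.2e-11, 3.5e-10 and 2.1e-09). The nearest line on the list median was EMT6, at 0.51 below E0771, and the farthest HRM1, at 2.67 below. The interferon gene Ifnb1 itself did not pass the minimum, at 0.363 to 1.02 RPKM in E0771, against 0, 0.0709 and 0.337 RPKM in the others. Genes induced by interferon-gamma did not move as a list against the mean of the 6 lines. Of 18 tested 2 were higher, 3 lower and 13 not called (median -0.26). By line, their median was 2.27 against HRM1, 0.84 against D2A1 and 0.43 against R3T. It was -0.445 against F311, -1.51 against EMT6 and -1.66 against TSAE1. Cxcl10, a T cell attractant, was higher (1.46 ± 0.28) and Gbp4, a guanylate-binding protein, lower (-1.85 ± 0.56). With the 24 others as 1 group both lost the call (adjusted p in limma 0.0771 and 0.212), and Gbp4 also lost it without EMT6 or without TSAE1 (its highest adjusted p over all alternatives was 0.212).

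**Figure D4:**
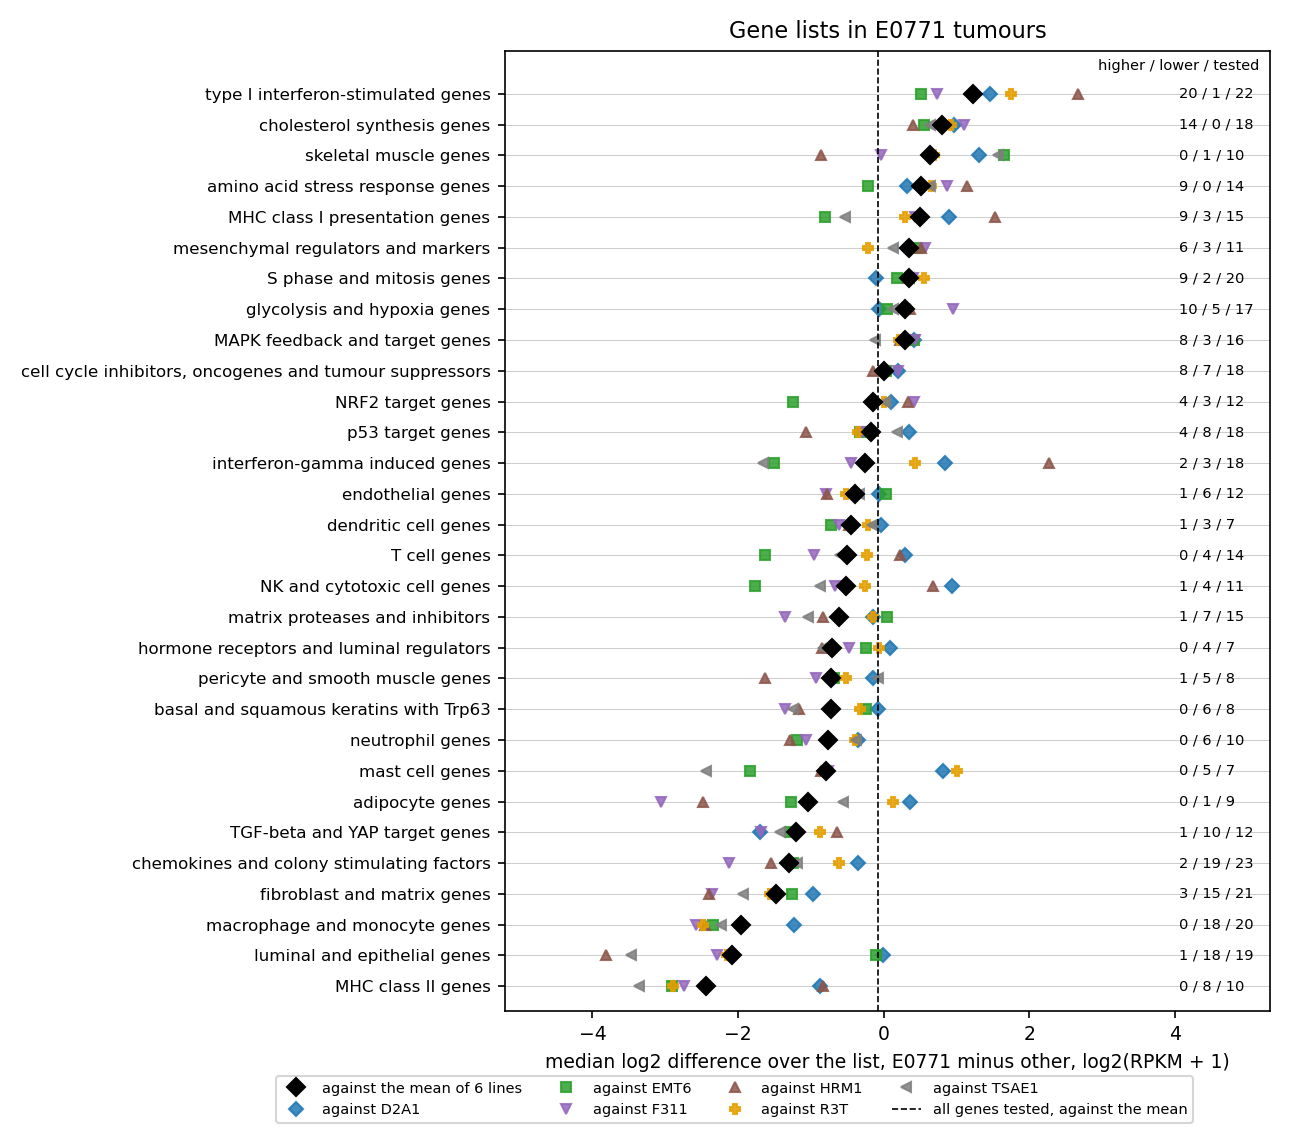
Median log2 difference of each gene list between E0771 and the mean of the 6 other lines (black diamonds) or each line (coloured marks), on the log2(RPKM + 1) scale, with called counts higher and lower of those tested at the right. Lists with at least 7 tested members are drawn, and the dashed line marks the median of all genes tested, -0.08.

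Antigen presentation was split between its classes. Of 10 tested MHC class II genes 8 were lower and 0 higher (median -2.44), and Cd74, the invariant chain, had 45.7, 20.8, 15.3 and 34.0 RPKM in E0771, against 69.9, 508 and 1788 in the others. All E0771 tumours lay below all others in Cd74 (-4.10 ± 0.38, adjusted p in limma 1.2e-09). Of 15 class I presentation genes 9 were higher and 3 lower (median 0.49), and without tumour 1-1 the higher count was 5. Of these 15 genes 0 were higher against each line. The class I median was -0.81 against EMT6 and -0.53 against TSAE1. It was 0.30 against R3T, 0.42 against F311, 0.89 against D2A1 and 1.52 against HRM1. H2-D1, a classical class I heavy chain, had 841, 971, 885 and 867 RPKM, against 61.3, 460.2 and 851, and H2-K1 322, 252, 265 and 327 RPKM, against 20.5, 159.5 and 641. In H2-D1 tumour 1-1 lay inside the range of the others and the other 3 above it, and in H2-K1 all 4 lay inside it (1.28 ± 0.29 and 1.25 ± 0.29; adjusted p in limma 0.00039 and 0.00059). These genes are highly polymorphic between strains and similar to each other, so reads may be lost or split. Nlrc5, the activator of class I genes, was higher (1.73 ± 0.31) and H2-T23, a non-classical class I gene, lower (-1.65 ± 0.26).

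Macrophage and monocyte genes were lower in E0771, 18 of 20 with 0 higher (median -1.96), and 9 were lower against each line. Csf1r, the receptor that macrophages need, had 6.35, 3.01, 3.70 and 3.52 RPKM in E0771, against 7.11, 43.4 and 101 in the others. C1qa, a complement subunit made by macrophages, had 49.1, 34.3, 32.2 and 46.1 RPKM, against 108, 352 and 572, and Arg1, arginase of alternatively activated macrophages, 1.06, 0.438, 0.760 and 0.489 RPKM, against 4.72, 55.5 and 726. The groups did not overlap in any of the 3 (-3.06 ± 0.22, -2.95 ± 0.19 and -5.11 ± 0.50; adjusted p in limma 9.7e-12, 7.1e-13 and 3.5e-09). Summed over the list, the level was 388 to 541 RPKM in E0771, against 1329, 2694 and 8841 RPKM in the others. MHC class II genes, which macrophages also express, were low in the same tumours, and the part of macrophages in that list was not tested.

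Chemokines and colony stimulating factors were 19 lower and 2 higher of 23 tested (median -1.30). Cxcl16 had 10.2, 5.76, 5.62 and 9.36 RPKM in E0771, against 17.4, 77.6 and 120.3 in the others, and Lif, a cytokine of the interleukin-6 family, 0.595, 0.311, 0.546 and 0.388 RPKM, against 1.78, 8.48 and 19.9. E0771 was below all others in both (-3.0 ± 0.21 and -2.53 ± 0.17; adjusted p in limma 8.4e-12 and 2.6e-12). The 2 higher members were the monocyte attractants Ccl2 and Ccl7, with differences of 2.60 and 1.69. Ccl20, which attracts cells that carry CCR6, was listed at 0 in all 4 E0771 tumours.

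Lymphocyte genes showed smaller differences. Of 14 T cell genes 4 were lower and 0 higher (median -0.50), and without tumour 1-2 or without tumour 1-5 the lower count was 2. Foxp3, the regulator of regulatory T cells, had 2.63, 2.39, 2.38 and 2.50 RPKM in E0771, against 2.91, 5.25 and 7.69 in the others, below all of them (-0.80 ± 0.09, adjusted p in limma 1.7e-08). Cd3e, a part of the T cell receptor complex, had 0.812, 0.253, 0.477 and 0.552 RPKM, against 0.0221, 1.07 and 20.5, and Cd8a, of cytotoxic T cells, 1.28, 0.270, 0.529 and 1.17 RPKM, against 0.0376, 1.26 and 18.4. Neither passed the test (adjusted p in limma 0.175 and 0.189), and their groups overlapped. Of 11 natural killer and cytotoxic genes 4 were lower and 1 higher (median -0.51), the higher one being the chemokine Ccl5 (1.49 ± 0.37). Of the other immune lists, 6 of 10 neutrophil genes, 3 of 7 dendritic cell genes and 5 of 7 mast cell genes were lower, and 0, 1 and 0 higher. Of the mast cell genes 0 were lower against each line. Their median was 0.81 against D2A1 and 1.00 against R3T, and -0.765 against F311, -0.86 against HRM1, -1.84 against EMT6 and -2.43 against TSAE1. Of all genes tested 38.8% were lower and 30.0% higher, so the lower counts of T cell, cytotoxic and dendritic cell genes were near or under that share. The lower dendritic cell count was 1 without tumour 1-5, the higher one was 0 without tumour 1-5 or 1-6, and the mast cell count was 2 without tumour 1-2 and 2 without tumour 1-5. B and plasma cell genes had 2 members tested, and limma called 0 (0 at an unadjusted p under 0.05).

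Matrix genes of fibroblasts were 15 lower and 3 higher of 21 tested (median -1.48). Col1a2, a chain of type I collagen, had 10.6, 0.982, 4.90 and 2.71 RPKM in E0771, against 9.18, 105 and 302 in the others, and Col1a1, its partner, 8.01, 1.45, 4.85 and 3.15 RPKM, against 9.14, 81.9 and 235. In Col1a2 tumour 1-1 reached the range of the others, and in Col1a1 none did (-4.30 ± 0.38 and -3.77 ± 0.38; adjusted p in limma 5e-10 and 5e-09). The 3 higher members, Col6a1, Col6a2 and Pdgfra, went against the list and are described after their values were seen. Col6a1, a chain of type VI collagen, had 199, 164, 211 and 264 RPKM, against 14.7, 33.6 and 80.1, and Pdgfra, a receptor for platelet-derived growth factor, 22.2, 16.0, 19.6 and 19.4 RPKM, against 2.94, 7.46 and 15.7. Both were above all 24 others (2.52 ± 0.25 and 1.33 ± 0.23; adjusted p in limma 5.6e-09 and 1.8e-05), and none of the 331 other libraries reached the lowest Col6a1 of E0771. Matrix proteases and their inhibitors were 7 lower and 1 higher of 15 (median -0.61), and without tumour 1-2 the higher count was 3. Their lower count was not far from the share of all genes tested that were lower (38.8%). Timp1, an inhibitor of matrix proteases, had 27.9, 34.5, 27.1 and 22.2 RPKM, against 78.5, 166 and 397, whereas Plaur, the urokinase receptor, had 66.7, 66.9, 66.4 and 83.0 RPKM, against 20.5, 38.0 and 50.5; neither overlapped (-2.59 ± 0.18 and 0.92 ± 0.15; adjusted p in limma 4.1e-12 and 7.5e-06). Of 12 endothelial genes 6 were lower and 1 higher (median -0.40), with 3 lower without tumour 1-2 and 3 without tumour 1-5. Of 8 pericyte genes 5 were lower and 1 higher (median -0.72), the higher one lost without tumour 1-1.

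Cholesterol synthesis genes were 14 higher and 0 lower of 18 tested (median 0.80). Sc5d, a late enzyme of the pathway, had 34.5, 36.3, 33.2 and 23.0 RPKM in E0771, against 7.25, 10.4 and 17.6 in the others. Mvd, which makes isopentenyl diphosphate, had 12.8, 17.7, 17.1 and 12.9 RPKM, against 4.24, 6.32 and 10.2. The groups did not overlap in either (1.48 ± 0.14 and 1.11 ± 0.09; adjusted p in limma 8.7e-10 and 6.3e-11). Hmgcs1, an early enzyme of the pathway, was listed at 0 in all 335 libraries of the series. Genes of the amino acid stress response were 9 higher and 0 lower of 14 (median 0.51), and Asns, asparagine synthetase, had 100.4, 139, 127 and 102 RPKM, against 10.0, 27.8 and 70.2, with no overlap (1.99 ± 0.24, adjusted p in limma 7.8e-08). Glycolysis and hypoxia genes were 10 higher and 5 lower of 17 (median 0.29), with 3 lower without tumour 1-5 and 3 lower after rescaling. Adm, the vessel-dilating peptide adrenomedullin, had 68.0, 66.5, 60.9 and 73.0 RPKM, against 1.02, 2.48 and 60.2, where EMT6 was the next line at 39.9 RPKM (3.77 ± 0.30, adjusted p in limma 7.8e-11). Car9, a carbonic anhydrase induced by hypoxia, was lower (-1.38 ± 0.20). Of 12 NRF2 targets 4 were higher and 3 lower (median -0.15), near or under the shares of all genes tested (30.0% higher and 38.8% lower).

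S phase and mitosis genes were 9 higher and 2 lower of 20 (median 0.34). The 2 lower ones were Mki67, the antigen of the Ki-67 stain, with 6.47, 4.06, 6.96 and 5.42 RPKM in E0771, against 8.11, 12.8 and 22.8 in the others, and Tyms, thymidylate synthase, with 8.95, 9.24, 8.76 and 8.81 RPKM, against 17.7, 21.5 and 33.3. Both were below all others in every E0771 tumour (-1.06 ± 0.16 and -1.24 ± 0.08; adjusted p in limma 3e-06 and 2.6e-12). Aurkb, a mitotic kinase, was higher, with 21.0, 15.5, 24.4 and 20.9 RPKM, against 6.88, 11.6 and 19.5, and its groups overlapped (0.74 ± 0.15, adjusted p in limma 0.00013).

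Erythroid genes were higher, 3 of 3 tested (median 3.51), with a summed level of 2667, 4343, 8155 and 1906 RPKM in E0771, against 42.7, 189 and 5377 RPKM in the others. Tumour 1-5 was above all others, and HRM1 had the highest mean of the other lines at 2165 RPKM. Alas2, the first enzyme of haem synthesis in red cell precursors, had 10.9, 10.9, 24.4 and 5.36 RPKM, against 0.232, 0.739 and 11.9 (2.37 ± 0.36, adjusted p in limma 3.3e-06). Of 9 adipocyte genes 1 was lower, of 10 skeletal muscle genes 1 was lower, and of 2 milk protein genes limma called 0 (0 at an unadjusted p under 0.05). Without tumour 1-1 3 adipocyte genes were lower, and without any of the other 3 E0771 tumours 0 adipocyte and 0 muscle genes were.

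Some differences lay within E0771. The class I gene H2-Q2 had 0.343, 71.5, 58.2 and 0.480 RPKM in the 4 tumours, and H2-Q10 12.1, 104, 9.27 and 3.77 RPKM, the first high in tumours 1-2 and 1-5 and the other in tumour 1-2 alone. BC021614, chosen after values were seen, had 23.8, 32.9, 0.480 and 0.315 RPKM, high in tumours 1-1 and 1-2. Muscle genes were high in tumour 1-1, where Acta1, skeletal actin, had 35.0, 0.835, 10.3 and 1.25 RPKM over the 4 tumours and Tnnt3, a troponin, 33.7, 0.203, 5.74 and 0.477. Adipocyte genes had a summed level of 141, 20.1, 22.8 and 46.9 RPKM, highest in the same tumour. The H2-Q genes are near copies, so their reads may be split, and the part of adjacent host muscle and fat in tumour 1-1 was not tested.

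**Figure D5:**
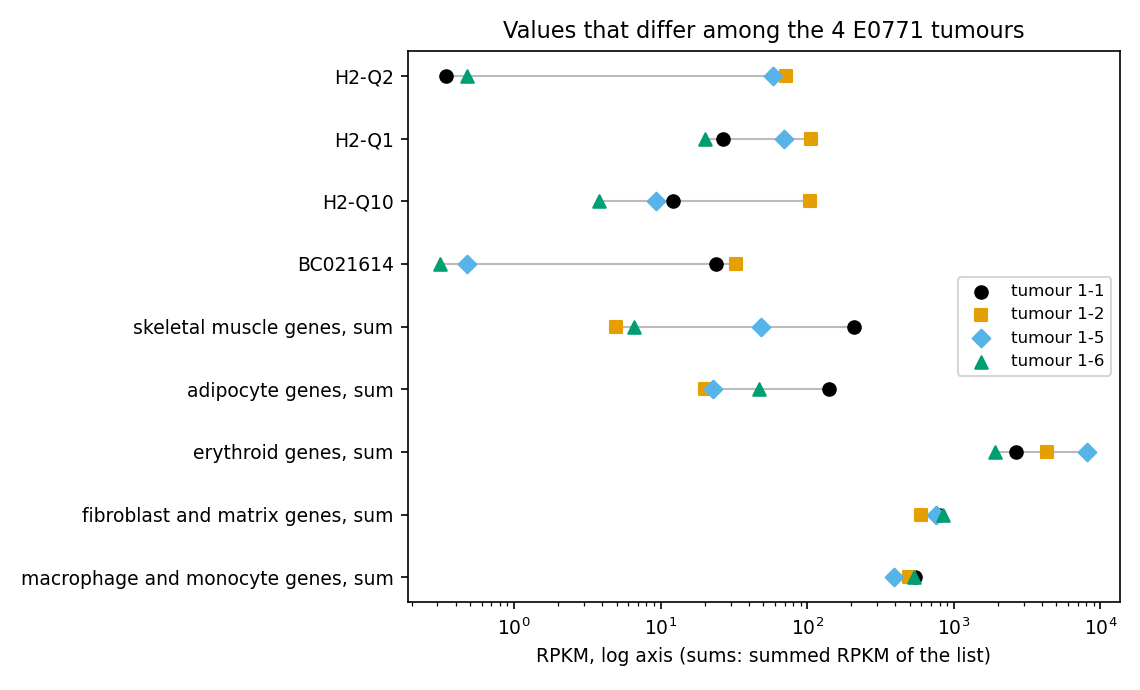
Level in RPKM, on a log axis, of genes and summed gene lists in each of the 4 E0771 tumours. H2-Q2 is at 71.5 and 58.2 RPKM in tumours 1-2 and 1-5 and at 0.343 and 0.480 RPKM in tumours 1-1 and 1-6, while summed skeletal muscle genes reach 209.6 RPKM in tumour 1-1.

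The PyMT tumours carried the strain difference in another model. With limma 795 of 11431 genes tested (6.95%) were called between BL6 and FVB, 334 higher (2.92%) and 461 lower (4.03%) in BL6, whereas after rescaling 477 were higher and 341 lower. The PyMT libraries come from 4 library series, and 5 of the FVB animals belong to a series with no BL6 animal. Within the series marked KS, with 2 BL6 animals titled BL6N against 7 FVB animals, 329 genes were higher and 991 lower. Within the series that holds the other 4 BL6 animals, against 4 FVB animals, 14 were higher and 2 lower, so that the balance of directions differed between the series and with the scaling. Titles there mark the 4 BL6 tumours PT-AX and the 4 FVB tumours PT-ING, so strain and this mark cannot be told apart. Of the 2392 genes that set E0771 apart from each line 2094 were tested there, and 157 (7.50%) were called, close to the share of all genes, 95 in the same direction and 62 in the opposite one. These 157 genes are 19.7% of the 795 called in PyMT, to be read beside the 2094 of 11431 among all genes tested there. Of the 30 named genes 16 were tested and 1, Raet1e, was called, at 0.373, 1.33 and 2.81 RPKM (lowest, median, highest) in BL6, against 0.109, 0.342 and 1.88 in FVB. Among the shared genes, shown after values were seen, Pop4, a subunit of RNase P, averaged 37.6 RPKM in E0771 and 7.17 in the 6 lines, and 20.5 RPKM in PyMT BL6 and 6.90 in FVB. Cadm1, a cell adhesion molecule, averaged 0.346 RPKM in E0771 and 20.5 in the 6 lines, and 12.0 RPKM in PyMT BL6 and 6.19 in FVB. The first pair thus went the same way in both comparisons and the second pair the opposite way.

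Of 22 type I interferon genes limma called 0 in PyMT (8 at an unadjusted p under 0.05), with a median of -0.78 (BL6 minus FVB), beside -0.03 over all genes. Rsad2 had 1.20, 2.63 and 4.52 RPKM in PyMT BL6, against 0.0903, 6.64 and 79.4 in FVB, and the difference was not called (adjusted p in limma 0.194). Of 8 MHC class II genes 3 were higher in BL6 and 0 lower, and H2-Ab1, a class II chain, had 21.5, 37.4 and 57.4 RPKM in BL6, against 1.07, 6.24 and 19.14 in FVB. In E0771 the same gene was lower, with 19.4, 12.6, 6.37 and 17.2 RPKM, against 14.7, 119 and 704. Ifi202b had 0.670, 1.21 and 1.44 RPKM in PyMT BL6, against 0.801, 2.13 and 8.86 in FVB, also not called (adjusted p in limma 0.216). Nnt, a mitochondrial transhydrogenase of which C57BL/6J mice but not C57BL/6N mice carry a deletion, had 3.99, 3.25, 4.44 and 3.84 RPKM in E0771, against 4.84, 10.1 and 17.0 in the others, below all of them (-1.20 ± 0.11, adjusted p in limma 1.6e-09). In PyMT it had 7.66, 11.6 and 13.6 RPKM in BL6, against 5.75, 10.9 and 14.0 in FVB, and was not called (adjusted p in limma 0.956). Of the 4 genes of the list of strain-variable genes that were tested, 2 were higher and 2 lower in E0771, and without any 1 of the 4 E0771 tumours the higher count was 1, as Entpd4 lost its call.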

How the data were processed

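RNA of snap-frozen tumours was sequenced as mRNA libraries on a HiSeq2500, per the labels' protocols. TopHat, DESeq2 and mm9 are named in the submitters' processing notes without versions or roles. The authors deposited RPKM per gene for all libraries, and no read counts were used here, so no count model was run. RPKM were taken to log2(RPKM + 1) and genes kept at 1 RPKM or more in at least 4 of 28 libraries (6 animals for PyMT, whose libraries were averaged per animal). Genes under 1 RPKM in all tumours of the other lines could pass through the 4 E0771 tumours alone and then only be called higher. limma 3.58.1 under R 4.3.3, with trend and robust moderation, fitted 7 line means with 21 residual degrees of freedom, and p-values were adjusted over all genes (Benjamini-Hochberg). Depth was recovered from the equal steps of low RPKM values (2422 genes, 100% of values whole to within 0.001 reads). Low values rest on few reads, which limits their precision. Fits were checked on simulated data. No 2 of the 28 libraries were identical.

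Named genes were the 15 largest in each direction by the rule given with them, up to 4 called members of each of 34 gene lists, fixed markers, and the most variable genes within E0771, with others said to be chosen after values were seen. The members and lists were chosen with earlier results of these data known. Pseudocount, minimum, scaling, grouping, left-out tumours and lines, and a block were varied. List members missing from the table were not analysed here, and 1 list member is not reported here. Figures used matplotlib 3.10.9 under Python 3.11.15.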

Additional observations from a re-analysis of the deposited data

Results flagged for a closer look

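In 10 of 113 named genes tested, 1 E0771 tumour stood apart from the other 3 by Dixon's test on log2(RPKM + 1). The 95% critical value for 4 samples was used, which chance passes in about 1 of 20 groups. Values are given as RPKM, without the log. Tumour 1-2 was apart in 4 genes, with 17.7 RPKM of Crmp1 (26.25 to 27.0 in the other 3), 21.56 RPKM of Slc7a5, an amino acid transporter (33.93 to 37.21), 14.95 RPKM of Rhox2g (11.5 to 12.01) and 12.8 RPKM of Dnmt1 (20.88 to 22.12). Tumour 1-6 was apart in 3, with 110.2 RPKM of Fosl1 (73.4 to 76.64), 83.04 RPKM of Plaur (66.4 to 66.88) and 9.882 RPKM of Xlr3b (12.2 to 12.72). Tumour 1-1 was apart in 2, with 7.267 RPKM of Rhox1 (8.721 to 8.834) and 14.5 RPKM of Xlr3a (10.87 to 11.36). Tumour 1-5 was apart in 1, with 26.3 RPKM of Egln3, an oxygen-sensing hydroxylase (33.01 to 33.96). Tumour 1-2 was also the library of lowest depth, and its part in these values was not tested.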

How the results depend on the processing

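E0771 against the mean of the 6 lines gave 8372 calls, and taking the 24 other tumours as 1 group gave 5363. The count was 8387 at a pseudocount of 0.1 and 8610 after rescaling, 7565 to 8463 leaving out 1 tumour and 8081 to 8460 leaving out 1 line. The count against each line, 2392, was 2625 at that pseudocount, 2601 without the minimum and 2672 after rescaling, 1985 to 2454 without 1 tumour and 2373 to 3191 without 1 line. Tumour numbers only name samples, and a replicate block on them gave 8364 and 2386 calls. PyMT BL6 against FVB, 795 calls, gave 1320 in the KS library series (2 against 7 animals) and 16 in the series that holds the other BL6 animals (4 against 4). Of 181 genes followed under 39 alternatives 0 changed sign, and 29 of 170 called genes lost the call at least once, all 29 of them with the 24 as 1 group, among them Trp53, Myc, H2-K1, Vim, Epcam, Mtap, Cxcl10 and Gbp4. H2-Q10 was called without tumour 1-2, and BC021614 without tumour 1-5 or 1-6. List counts by scaling and without each E0771 tumour were computed after seeing the data: no list median changed sign on rescaling, and those of oncogenes (0.01; -0.06, -0.01 and -0.01 without tumour 1-1, 1-5 and 1-6) and muscle genes (0.63; -0.12 without tumour 1-1) did on leaving out a tumour.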
